A study of Mus musculus with 3 samples.

Results

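The set described here holds 5 mouse genes of vitamin D signalling: the vitamin D receptor Vdr, its partner Rxra, the enzymes Cyp24a1 and Cyp27b1, and the surface receptor Cd14. They were chosen by symbol, with earlier results of these data known, and are 5 of the 31253 genes listed in the skin matrices. Each symbol has 1 row, with the identifiers ENSMUSG00000022479 (Vdr), ENSMUSG00000015846 (Rxra), ENSMUSG00000038567 (Cyp24a1), ENSMUSG00000006724 (Cyp27b1) and ENSMUSG00000051439 (Cd14). The 2 skin libraries are single-cell captures on the BD Rhapsody microwell system after selection of cells with beads against CD45, the leukocyte surface protein. The control library came from mice treated with MC903 and the RHS library from mice given both RHS and MC903. MC903 is a vitamin D analogue applied to mouse skin to cause a dermatitis. The labels do not spell out RHS, nor the strain, age, dose or number of mice behind a skin library. Both libraries carry MC903, so the comparison is of RHS on top of MC903, and a skin without MC903 was not analysed here. With 1 library a group there is no replicate and no test: the intervals cover counting error only, and a difference between the libraries cannot be told apart from a difference between these 2 captures.

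The vitamin D receptor is a nuclear receptor that binds the active hormone, or an analogue such as MC903, and pairs with a retinoid X receptor on DNA. Its best known target is Cyp24a1, the mitochondrial enzyme that breaks down the active hormone, while Cyp27b1 makes that hormone and is known in keratinocytes as well as kidney. Keratinocytes are a main site of vitamin D action in skin, and CD14, the co-receptor that hands bacterial lipopolysaccharide to TLR4, is induced by vitamin D in human myeloid cells and keratinocytes.

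The control library kept 12577 of 12979 barcodes and the RHS library 12953 of 13339, with median depths of 3233 and 3101 UMIs a cell and 53563940 and 51553807 UMIs in all. The libraries shared 5 barcodes. The cells fell into 26 clusters, made without the 5 genes, of which 23 took a name ending in "-like" from marker genes and 3 stayed unnamed. The labelled cell type, immune cell, held for most but not all cells. In 8 clusters Ptprc, the gene of CD45, was at most 17.1 CPM (UMI counts scaled to the same total per library and cluster), against at least 97.8 CPM in the other 18. These 8 clusters held 4190 control cells (33.3%) and 2952 RHS cells (22.8%). They include the epithelial clusters where most of the Cyp24a1 lay: keratinocyte-like cluster 9 (633 control and 403 RHS cells, led by Krt6a, Krtdap and Krt10), keratinocyte-like cluster 16 (530 and 57 cells, led by Krt16, Krt25 and Dlx3) and sebocyte-like cluster 18 (240 and 224 cells). All 3 were retained despite the bead selection, so their share of a library is not their share of the skin.

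The promoters of 2 members are shown because they carry different core elements upstream of the start. They are the 250 bases before the start from RefSeq's annotation of GRCm38.p6, at chr15:97908297-97908546 on the minus strand for Vdr and chr10:127047996-127048245 on the plus strand for Cyp27b1. Capitals mark GC boxes (GGGCGG) in Vdr and the letters TATATA in Cyp27b1.
Vdr: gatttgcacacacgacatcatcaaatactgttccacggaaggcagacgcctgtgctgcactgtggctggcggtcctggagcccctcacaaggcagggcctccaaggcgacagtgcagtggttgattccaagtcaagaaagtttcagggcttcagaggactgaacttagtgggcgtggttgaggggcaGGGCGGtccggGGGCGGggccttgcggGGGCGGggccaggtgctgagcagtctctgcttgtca
Cyp27b1: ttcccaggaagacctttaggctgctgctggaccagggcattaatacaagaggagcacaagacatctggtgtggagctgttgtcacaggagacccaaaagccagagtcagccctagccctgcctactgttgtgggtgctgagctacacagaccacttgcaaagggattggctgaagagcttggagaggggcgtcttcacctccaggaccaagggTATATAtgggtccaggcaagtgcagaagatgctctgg
The Vdr window held 3 GC boxes and 61.2% G and C, and the Cyp27b1 window held none, 54.4% G and C and TATATA starting 37 bases before the start. Rxra has 2 starts in the table, with 3 GC boxes at the one and none at the other. Of 32851 such windows, 32.7% held a GC box on either strand and 5.25% held TATATA. The DR3 vitamin D response element, searched on both strands, was in 0.222% of the windows and in none of these genes' windows. Cyp24a1 and Cd14 were not among the windows. These letters are a description of the sequence and not a measurement of binding.

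Summed over all skin cells, the 4 vitamin D pathway genes were lower in the RHS library and Cd14 was higher. Vdr went from 93.2 to 61.7 CPM, a ratio of 0.662 (95% counting interval 0.633 to 0.692). Rxra went from 13.9 to 8.09 CPM, a ratio of 0.582 (0.515 to 0.657). Cyp24a1 went from 167 to 53.4 CPM, on 8943 and 2755 counts, a ratio of 0.320 (0.307 to 0.334). The breakdown enzyme thus had the lowest ratio of the members with over 200 counts. Cyp27b1 rested on 86 and 16 counts, with a ratio of 0.193 (0.106 to 0.332). Cd14 went from 1123 to 1724 CPM, a ratio of 1.54 (1.52 to 1.55). A ratio past 1.5-fold with at least 20 counts over both libraries was called. By that rule 4 members were called lower and 1 higher, where 16.7% of all 16244 genes measured were called lower and 3.9% higher.

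The ratio of a library is also set by which cells it holds, and the make-up of the libraries differed. The 3 epithelial clusters made up 11.2% of control and 5.28% of RHS cells and held 94.0% and 89.3% of the Cyp24a1 counts, 82.6% and 81.3% of the Cyp27b1 counts and 40.3% and 26.1% of the Vdr counts. The macrophage-like and monocyte-like clusters with cluster 3 made up 19.1% and 29.4% of the cells and held 79.3% and 84.5% of the Cd14 counts. When every cluster was weighted by its share of the control library's UMIs, the ratios moved to 0.946 for Vdr, 0.692 for Rxra, 0.621 for Cyp24a1, 0.650 for Cyp27b1 and 1.11 for Cd14. At that make-up Cyp24a1 and Cyp27b1 were past 1.5-fold lower and no member was past it higher, against 8.62% and 3.89% of all genes. Cyp24a1 no longer passed it at Leiden resolution 0.5 (0.713), at a mitochondrial limit of 10% (0.676) or with the libraries clustered separately (0.716), where Rxra did pass it (0.600). The over-all ratios of Vdr (0.714 relative to the median gene) and Cd14 (1.495 as a mean over cells) also lay close to it. At the control make-up the Cyp27b1 ratio rested mostly on cluster 16, with 3 RHS counts there. Make-up ratios have no counting interval of their own.

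**Figure D1:**
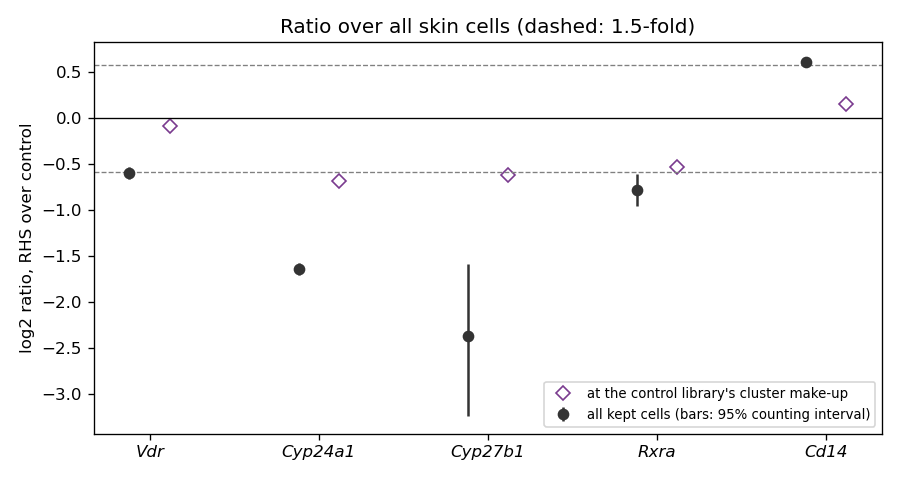
Log2 ratio of RHS over control for each of the 5 genes (vertical axis, 0 means equal), over all kept cells (filled circles, bars are 95% counting intervals) and with each cluster weighted by its share of control UMIs (open diamonds). Dashed lines mark 1.5-fold. The diamonds of all 5 genes lie nearer 0 than the circles: 0.621 against 0.320 for Cyp24a1 and 1.11 against 1.54 for Cd14.

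Within clusters, 73 of the 130 gene and cluster pairs had at least 20 counts, and of these 12 were past 1.5-fold higher and 24 lower. Over all genes, 8.68% of 196832 such values were higher and 11.8% lower, with a range over clusters of 4.77% to 18.2% higher and 7.57% to 29.4% lower. The receptor stayed within 1.5-fold in 13 of its 18 measured clusters, whereas Rxra was called lower in 10 of 17, Cyp24a1 lower in 8 of 13 and Cd14 higher in 9 of 24. Of those calls, the counting interval excluded 1 in 3 of 4 for Vdr lower, 6 of 10 for Rxra lower, 4 of 8 for Cyp24a1 lower and 8 of 9 for Cd14 higher.

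**Figure D2:**
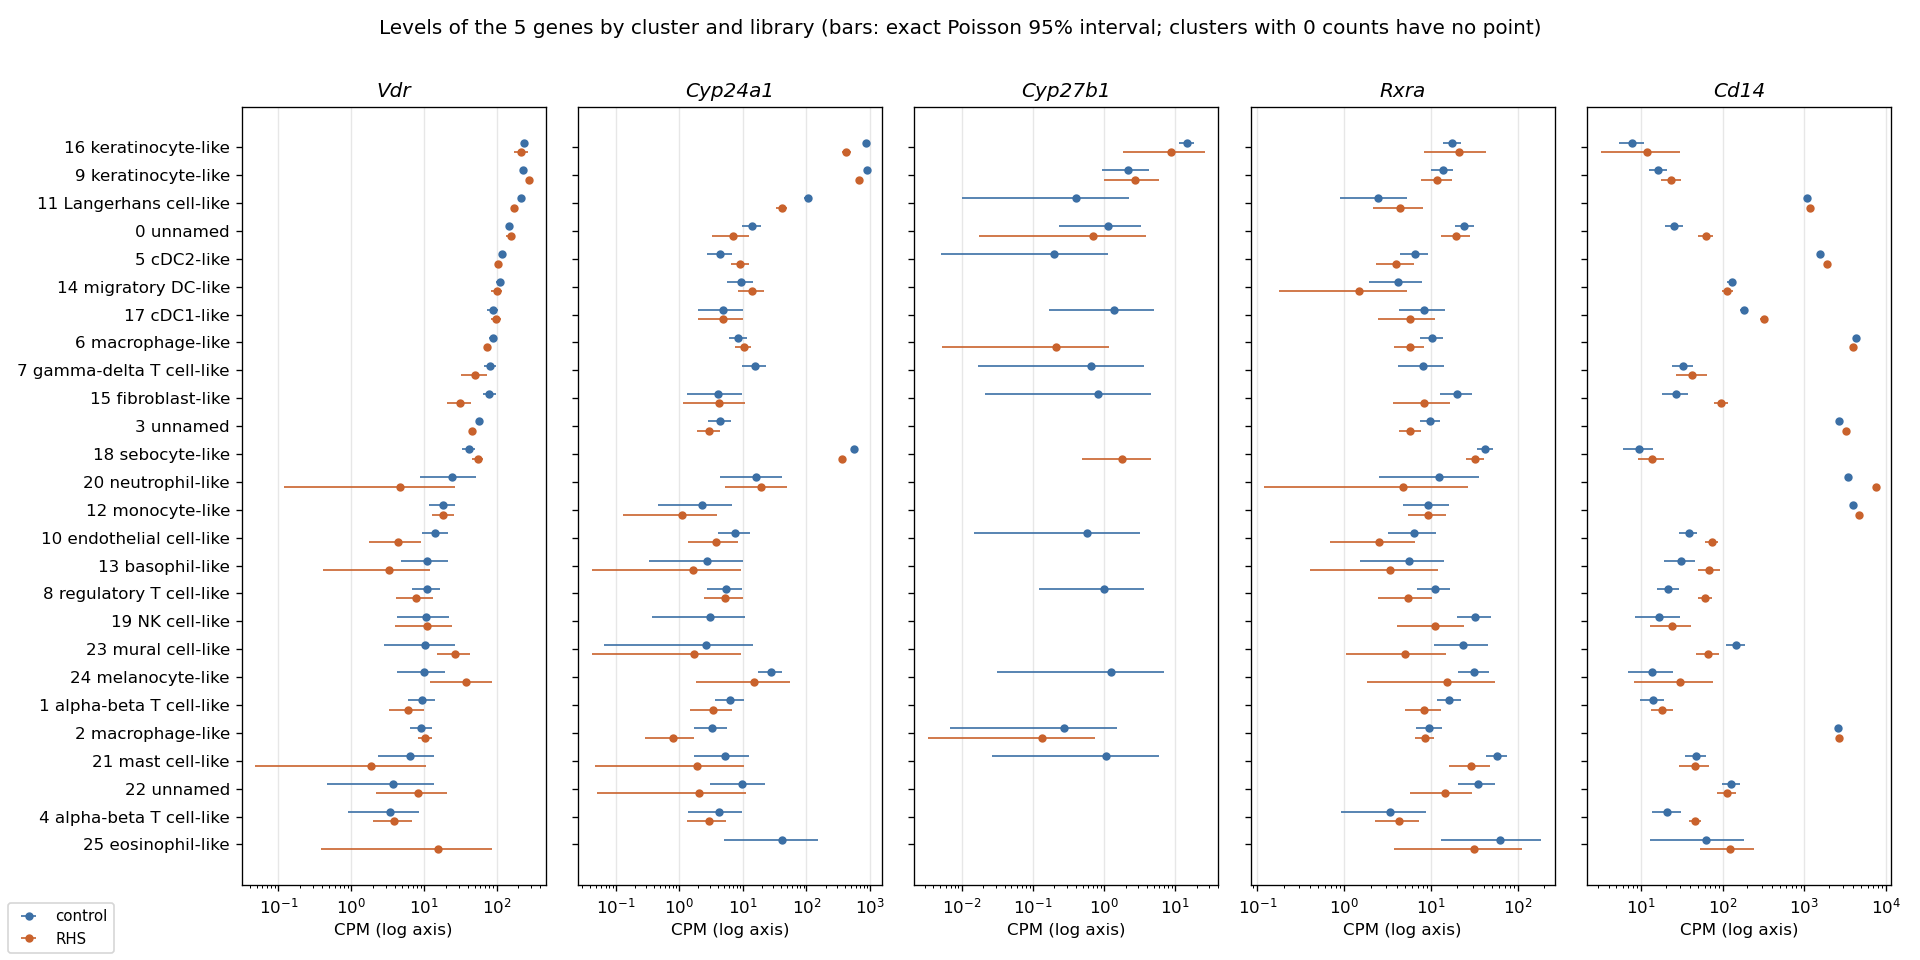
Level of each gene in CPM (horizontal, log axis) in each of the 26 clusters (rows, ordered by Vdr in the control library), control in blue and RHS in orange, with exact Poisson 95% intervals. Clusters with 0 counts have no point. Vdr lies between 214 and 242 CPM in the top 3 control rows, and Cyp24a1 stands out in clusters 9, 16 and 18. Cd14 is highest in the macrophage-like, monocyte-like and neutrophil-like rows and in cluster 3.

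Vdr, the receptor, was highest in the keratinocyte-like and Langerhans cell-like clusters, and next in unnamed cluster 0 and the dendritic cell-like ones. In the control library it stood at 242 CPM (228 to 257) in cluster 16, at 233 CPM (217 to 249) in cluster 9 and at 214 CPM (197 to 233) in the Langerhans cell-like cluster 11. The intervals of neighbours in this order overlapped. Unnamed cluster 0, led by Slc26a7, Igfbp3 and Prlr, followed at 148 CPM, and the cDC2-like cluster 5 at 118 CPM (108 to 128). Neither overlapped with the neighbour above it. Migratory dendritic cell-like cells had 111 CPM and cDC1-like cells 89.2 CPM. Vdr also separated the macrophage-like clusters. Cluster 6, led by Arg1, Mmp13 and Mmp12, had 88.5 CPM (79.7 to 97.9), while cluster 2, led by Ccl8, Pf4 and Cd163, had 9.26 CPM (6.41 to 12.9). The same gap stood in the RHS library, at 73.8 and 10.4 CPM. Gamma-delta T cell-like cells had 81.6 CPM, against 9.48 and 3.37 CPM in the alpha-beta T cell-like clusters 1 and 4. Sebocyte-like cells had 41.7 CPM, well under the keratinocyte-like clusters in both libraries.

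Between the libraries the receptor moved in both directions. In keratinocyte-like cluster 9 it was 284 CPM (262 to 307) in RHS, a ratio of 1.22 (1.10 to 1.35), and in sebocyte-like cells it was 55.1 CPM, a ratio of 1.32 (1.01 to 1.74) that was 0.966 as a mean over cells. In cluster 16 it was 218 CPM (171 to 274), and the intervals of the libraries overlapped. In the Langerhans cell-like cluster it was 173 CPM, a ratio of 0.809 (0.708 to 0.923). The fibroblast-like cluster had the clearest difference past 1.5-fold, from 79.6 CPM on 96 counts to 31.3 CPM on 30 counts, a ratio of 0.393 (0.252 to 0.597). In that cluster 22.7% of all genes were called lower and the median log2 ratio of all genes was -0.16. With doublets kept the Vdr ratio was 0.738, which is no longer past 1.5-fold. Gamma-delta T cell-like cells (0.611, 0.384 to 0.939, and 0.676 with separate clustering) and endothelial cell-like cells (0.307, 0.112 to 0.730, on 25 and 7 counts) were lower too, where 13.2% and 10.3% of all genes were. A ratio of 0.638 in alpha-beta T cell-like cluster 1 and of 2.58 in mural cell-like cells had intervals that include 1. The share of cells with a Vdr UMI followed the levels: 56.2% and 62.3% in cluster 9, 71.7% and 57.9% in cluster 16, 49.3% and 43.5% in the Langerhans cell-like cluster, and 2.18% and 1.15% in alpha-beta T cell-like cluster 1.

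Rxra, the retinoid X receptor that pairs with the vitamin D receptor and with several other nuclear receptors, was thinly captured and had another distribution. In the control library mast cell-like cells had 56.5 CPM (42.3 to 73.9), sebocyte-like cells 41.7 CPM (34.0 to 50.6) and NK cell-like cells 32.0 CPM (19.8 to 48.9). Eosinophil-like cells stood at 62.5 CPM on 3 counts only. Neighbouring intervals overlapped over the first 4 ranks in both libraries. The keratinocyte-like clusters, where Vdr was highest, had 17.3 CPM in cluster 16 and 13.5 CPM in cluster 9, and the Langerhans cell-like cluster had 2.41 CPM on 6 counts.

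The ratio of Rxra was under 1 in 15 of 17 measured clusters. The share of all genes under 1 was not counted, and the median log2 ratio of all genes in a cluster lay between -0.157 and 0.061. Mast cell-like cells went from 56.5 to 28.5 CPM (15.97 to 47.1) on 53 and 15 counts, a ratio of 0.505 (0.265 to 0.910), in a cluster where 12.1% of all genes were called lower. NK cell-like cells went to 11.05 CPM, a ratio of 0.346 (0.114 to 0.885), and fibroblast-like cells from 19.9 to 8.34 CPM, a ratio of 0.419 (0.163 to 0.964). Macrophage-like cluster 6 had a ratio of 0.556 (0.330 to 0.921), unnamed myeloid cluster 3 of 0.588 (0.392 to 0.880) and alpha-beta T cell-like cluster 1 of 0.507 (0.278 to 0.893). The alpha-beta T cell-like class as a whole was 0.489, and 0.904 at Leiden resolution 0.5. The clusters richest in Cyp24a1 were not among them: the ratio was 0.864 (0.516 to 1.41) in cluster 9, 1.19 (0.464 to 2.58) in cluster 16 and 0.774 (0.564 to 1.06) in sebocyte-like cells. The interval of cluster 16 includes the ratio seen in mast cell-like cells, and those of the other two have lower bounds just above it.

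**Figure D3:**
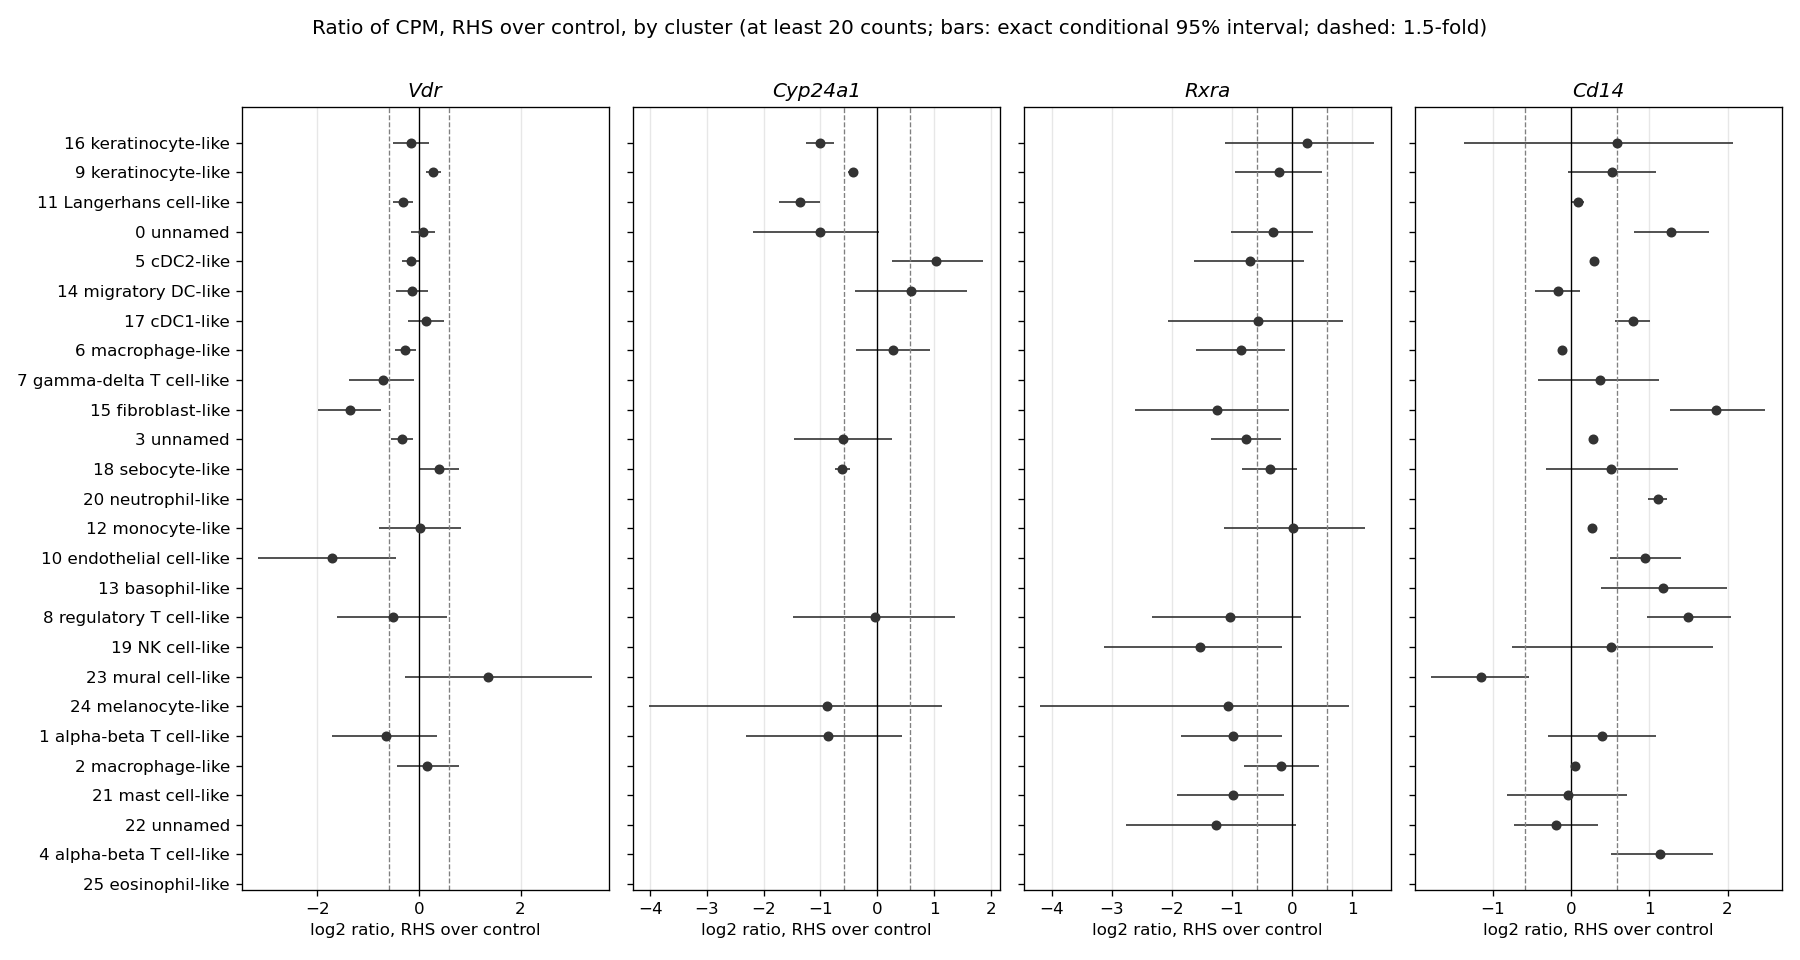
Log2 ratio of CPM, RHS over control (horizontal axis, solid line at 0, dashed lines at 1.5-fold), for Vdr, Cyp24a1, Rxra and Cd14 in each cluster (rows) with at least 20 counts, with exact conditional 95% counting intervals. Cyp27b1 is left out because only 1 cluster reached 20 counts, and a ratio of 0 has no point. The points of Rxra lie left of the solid line in 15 of 17 clusters, and those of Cd14 right of it in 19 of 24. The share of all genes on each side of that line was not counted.

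Cyp24a1, the enzyme that breaks down the active hormone, was an epithelial transcript in these libraries and was lower in RHS in each of the 4 clusters that held most of it. In cluster 9 it went from 904 CPM (873 to 935) on 3345 counts to 676 CPM (642 to 711) on 1507 counts, a ratio of 0.748 (0.704 to 0.795). In cluster 16 it went from 854 CPM (827 to 882) to 424 CPM (358 to 500), on 3702 and 144 counts, a ratio of 0.497 (0.418 to 0.587). In sebocyte-like cells it went from 555 CPM (525 to 585) to 362 CPM (338 to 388), a ratio of 0.653 (0.598 to 0.713), which was 0.709 at a mitochondrial limit of 10% and 0.668 without the richest cells and so within 1.5-fold. The libraries did not overlap in any of the 3. The Langerhans cell-like cluster followed at 105 CPM (92.5 to 118) and 40.7 CPM (32.8 to 49.9), a ratio of 0.388 (0.303 to 0.494). Lower calls past 1.5-fold took in 9.33% of all genes in cluster 9, 18.1% in cluster 16, 8.13% in the sebocyte-like and 8.92% in the Langerhans cell-like cluster. The order of levels in the control library set clusters 9 and 16 together, above sebocyte-like cells and then Langerhans cell-like cells. In RHS cluster 9 stood alone at the top.

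Keratinocyte markers differed by less than 1.5-fold between the libraries in these clusters. The 25 keratinocyte markers in the files summed to 13976 and 14442 CPM in cluster 9, 5088 and 4291 CPM in cluster 16 and 9538 and 9156 CPM in sebocyte-like cells. In cluster 9 the cells that drew less than 0.25 of their Krt1, Krt10, Krt5 and Krt14 counts from Krt1 and Krt10, the keratins of differentiating cells, had 925 CPM of Cyp24a1 in 471 control cells and 683 CPM in 306 RHS cells. The 16 and 13 cells with over 0.75 had 333 and 167 CPM. Their intervals of 213 to 495 and 86.3 to 292 CPM lay below the first values in each library and overlapped each other. The 125 and 75 cells of cluster 9 with under 5 such keratin UMIs had 1080 and 1084 CPM, with overlapping intervals. Cluster 16 differed there: its 85 control and 19 RHS cells with under 5 had 598 CPM (521 to 684) and 145 CPM (72.5 to 260). Its 445 and 38 cells with less than 0.25 had 877 and 505 CPM. In cluster 9 Vdr did not follow the order of Cyp24a1 from under 0.25 to over 0.75. It had 221 and 319 CPM in these control bins and 275 and 292 CPM in the RHS bins.

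Per cell, fewer RHS cells held Cyp24a1. In cluster 9 a UMI was found in 68.7% of control and 52.1% of RHS cells, and the median over cells went from 560 to 163 CPM. Among cells with a UMI the median was 4 UMIs in both libraries, and the highest cell had 49 and 62 UMIs. In cluster 16 the share went from 81.1% to 43.9% and the median of the positive cells from 6.5 to 4 UMIs. The share of sebocyte-like cells was 45.4% and 42.9%, with medians of 6 and 5 UMIs and highest cells of 121 and 58 UMIs. With each cell thinned to 500 UMIs, which left out no cell, the shares were 33.5% and 20.8% in cluster 9, 26.6% and 14.0% in cluster 16, and 17.9% and 13.8% in sebocyte-like cells. Alpha-beta T cell-like cells had a UMI in 0.594% to 1.39% of cells at medians of 1854 to 2519 UMIs, against 4886 to 10471 in the epithelial clusters. Activated T cells can be induced to make the enzyme, so that share is a low reference and not a measured background.

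**Figure D4:**
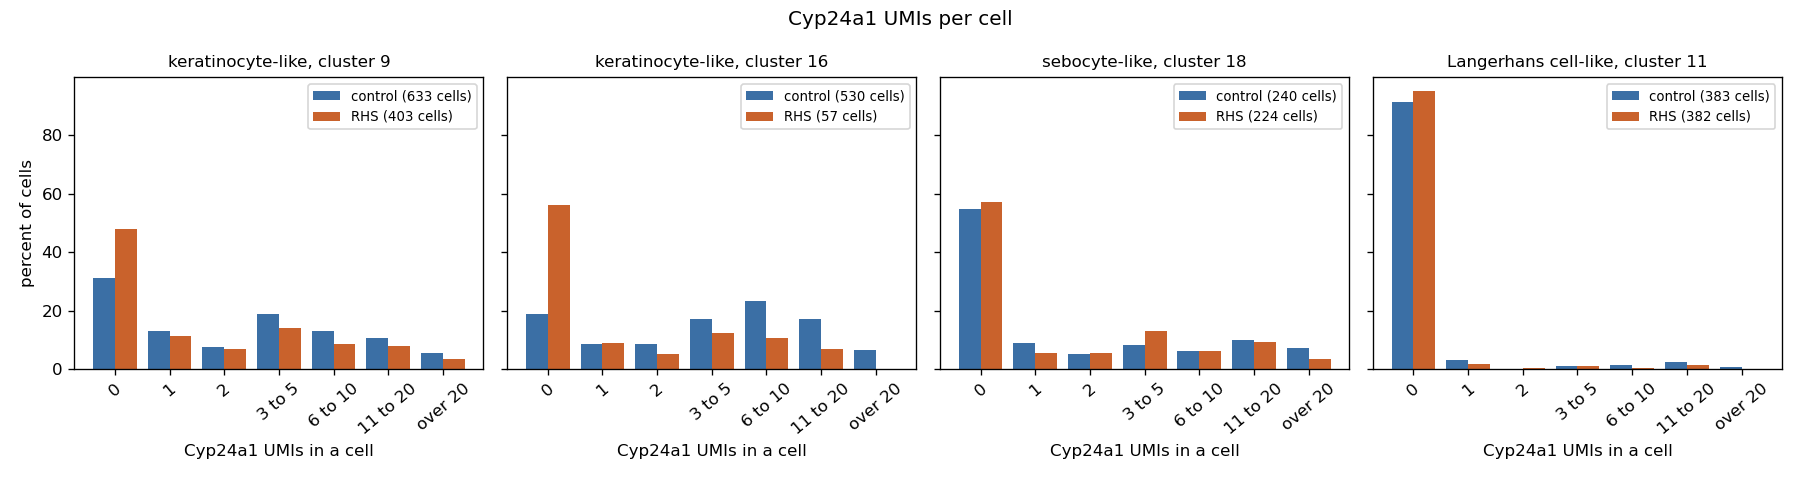
Percent of cells (vertical axis) by the number of Cyp24a1 UMIs in a cell (horizontal axis) in 4 clusters, control in blue and RHS in orange, with the number of cells in each legend. In cluster 16, 6.60% of control cells and none of the 57 RHS cells held over 20 UMIs, and the bar at 0 is taller in RHS in every panel.

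The Cyp24a1 of the Langerhans cell-like cluster came from a small number of rich cells. A UMI was found in 33 of 383 control and 19 of 382 RHS cells, and 17 and 6 of these held over 5 UMIs each. Those 17 and 6 cells had 232 and 0 CPM of Cd207, the langerin gene that defines Langerhans cells, against 5230 and 5157 CPM in the 350 and 363 cells without Cyp24a1. Their keratinocyte markers were no higher, at 65.2 and 48.4 CPM against 152 and 151 CPM, and their median depths were 7514 and 6401.5 UMIs, against 6049.5 and 5778 UMIs. Vdr was 239 and 484 CPM in them and 212 and 169 CPM in the rest. So within that cluster the Cyp24a1 counts and the Cd207 counts lay mostly in different cells. These subsets were set on Cyp24a1 itself after its values were seen, and they give no test.

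Outside the epithelial and Langerhans cell-like clusters Cyp24a1 was between 0 and 41.6 CPM, the highest of these on 2 counts. In cDC2-like cells it went from 4.41 to 9.08 CPM on 22 and 39 counts, a ratio of 2.06 (1.19 to 3.64), but 1 RHS cell held 11 of the 39. Without the richest cell of each library the ratio was 1.81 (0.964 to 3.47), and it fell under 1 with doublets kept (0.723), at Leiden resolution 0.5 (0.908) and with the members among the clustering genes (0.578). Migratory dendritic cell-like cells (1.51, 0.761 to 2.97) gave 0.907 without their richest cells. Gamma-delta T cell-like cells had 23 control counts and 0 in RHS, with an interval of 0 to 0.503 for the ratio. A floor of 3 counts in RHS would make it 2.65-fold lower, which is not a bound. Reads of Pfdn4, which overlaps Cyp24a1 on the other strand in the GRCm38 annotation, cannot be told apart from it if strand was not counted. Pfdn4 itself was at 80.5 and 80.3 CPM in cluster 9, 122 and 82.5 CPM in cluster 16 and 46.6 and 54.2 CPM in sebocyte-like cells, against a median of 33.7 and 38.5 CPM over clusters.

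Cyp27b1, the enzyme that makes the active hormone, was seen mostly in keratinocyte-like cluster 16 of the control library. There it had 63 control counts, 14.5 CPM (11.2 to 18.6), and 3 RHS counts, 8.84 CPM (1.82 to 25.8). The ratio of 0.608 had an interval of 0.122 to 1.86, so within the cluster a difference was not detectable at this depth. Cluster 9 had 8 and 6 counts, sebocyte-like cells 0 and 4, and no other cluster more than 3 in a library. The 240 control sebocyte-like cells without a count allow a share of cells with a UMI of up to 1.25%. The over-all ratio of 0.193 therefore rests on a cluster of 530 control and 57 RHS cells. In the control cells of cluster 16 Cyp27b1 was found in 10.9% (8.14% to 14.3%) of cells with Cyp24a1 and 7.00% (2.86% to 13.9%) of those without, and the intervals overlapped. After thinning to 2000 UMIs the shares were 3.74% and 2.25%, also with overlapping intervals.

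Receptor and target were next compared cell by cell. In control cluster 9, Cyp24a1 was found in 70.5% of cells with Vdr and 66.4% of those without, and in RHS in 58.2% and 42.1%. After thinning to 2000 UMIs the order turned, at 49.7% and 57.7% in control and 37.9% and 43.4% in RHS, with overlapping intervals. In control cluster 16 the shares of 85.5% and 70.0% became 65.9% and 65.6%. In sebocyte-like cells the thinned shares were 53.3% (26.6% to 78.7%) and 33.9% (27.0% to 41.4%) in control, which overlapped, and 54.2% (32.8% to 74.4%) and 25.2% (18.5% to 32.8%) in RHS, on 15 and 24 cells with Vdr. So in keratinocyte-like cells the joint detection at full depth moved with the depth of the cells.

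The genes around the receptor were read from lists chosen with the members, when earlier results of these data were known. Of the receptor's coactivators in cluster 9, Snw1 had a ratio of 1.04, Med1, a Mediator subunit that binds the receptor, one of 1.02 and Ncoa3 one of 0.706. Rxrb, another retinoid X receptor, had 17 and 10 counts there. Of the 8 synthesis and transport genes, Dhcr7, which turns the vitamin D precursor into cholesterol, was at 154 and 112 CPM in sebocyte-like cells (0.728, 0.618 to 0.856) and Cyp27a1 at 16.8 and 17.5 CPM in cluster 9. Of the calcium-handling targets known from gut and kidney, Atp2b1, a plasma membrane calcium pump, was at 239 and 204 CPM in cluster 9 (0.855). Trpv5, Trpv6, S100g and Calb1 had 0 counts there. Of the immune-cell targets, 7 were measured in cluster 9 and 0 passed in either direction, against 6.43% of all genes higher and 9.33% lower there, with Hif1a at 1.16, Cdkn1a at 0.870 and Il10 at 0.731 on 25 and 11 counts. Over all cells, without weighting by the control make-up, Il10 was 1.54 and no gene of that list was lower. Of all genes, 3.9% were higher and 16.7% lower over all cells.

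Of 11 epidermal genes known to respond to MC903, 8 were measured in cluster 9, and 0 were higher in RHS and 5 lower, against 6.43% and 9.33% of all genes there, with a median log2 ratio of -0.66 against 0.01 for all genes. Klk10, a kallikrein protease, went from 184 to 64.2 CPM (0.349, 0.289 to 0.418). Areg, an EGF receptor ligand, went from 197 to 82.1 CPM (0.417, 0.353 to 0.492). Il24, an IL-10 family cytokine, went from 938 to 564 CPM (0.602). The alarmins Il1a (0.550) and Il33 (0.661) were also past 1.5-fold, while Klk6 (0.719), Cst6 (0.761) and Hbegf (0.859) were within it. Tslp, the cytokine that MC903 is best known to induce in keratinocytes, had only 11 and 3 counts. The pattern was not shared by all epithelial clusters. In cluster 16, where 18.1% of all genes were lower and 13.4% higher, 2 of 5 were lower: Il24 (0.226) and Klk10, with 102 control counts and 0 in RHS, while Areg was 1.36. In sebocyte-like cells 3 of 8 were lower, with Klk10 at 0.313 and Il1a at 0.173, and 3 higher, with Il24 at 1.68 (1.36 to 2.08), S100a8 at 2.80 and Areg at 1.80 (0.888 to 3.78), against 8.13% of all genes lower and 6.57% higher. Whether these cluster differences differ from each other was not tested. The list was chosen with earlier results of these data known, so its counts are a description.

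**Figure D5:**
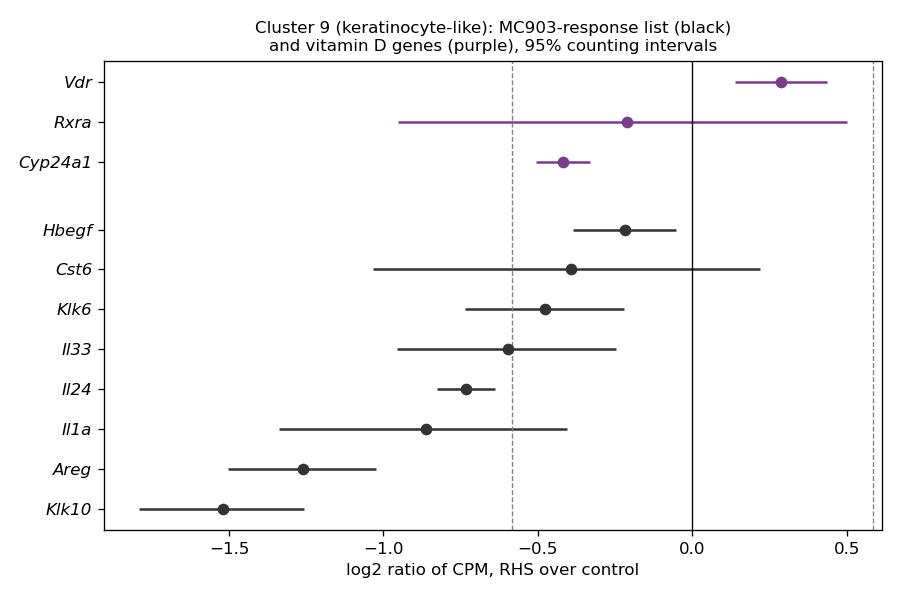
Log2 ratio of CPM, RHS over control (horizontal axis), in keratinocyte-like cluster 9 for the 8 measured genes of the MC903 list (black) and 3 of the 5 described genes (purple), with 95% counting intervals and dashed lines at 1.5-fold. Klk10, Areg, Il1a, Il24 and Il33 lie past the left dashed line, Cyp24a1 lies between it and 0, and Vdr right of 0.

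Cd14, the lipopolysaccharide co-receptor, was highest in macrophage-like, monocyte-like and neutrophil-like cells and in cluster 3. Its clearest difference between the libraries was in neutrophil-like cells. In the control library it was 4344 CPM (4281 to 4407) in macrophage-like cluster 6, 3903 CPM in monocyte-like cells, 3451 CPM (3223 to 3690) in neutrophil-like cells, 2622 CPM in cluster 3 and 2572 CPM in macrophage-like cluster 2. Only the last pair overlapped. In RHS the neutrophil-like cells stood first, at 7446 CPM (7082 to 7825), above monocyte-like cells at 4713 CPM and cluster 6 at 4000 CPM. Their ratio was 2.16 (1.98 to 2.35), on 852 and 1564 counts, where 13.4% of all genes in that cluster were called higher and 17.2% lower. The share of neutrophil-like cells with a UMI was 80.3% and 87.5%, and the median over cells went from 2295 to 5292 CPM. Over the 11 alternatives the ratio stayed between 2.06 and 2.22. In that cluster the macrophage markers summed to 279 and 214 CPM, the cDC2 markers to 72.9 and 195.2 CPM and the Langerhans cell markers to 1806 and 2828 CPM. Of the 6 Langerhans cell markers, which include Il1r2, 4 had counts there in RHS, while Cd207 and Ltc4s were at 0. The share of each marker in that sum is not given here, so the sum is not a measure of Langerhans cell content. The part of these marker sums in the Cd14 values was not tested.

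The macrophage-like, monocyte-like and dendritic cell-like clusters and cluster 3 differed less. The ratio was 1.21 in monocyte-like cells, 1.22 in cluster 3, 1.04 in macrophage-like cluster 2, 0.921 in cluster 6 and 1.06 in Langerhans cell-like cells. cDC2-like cells had 1546 and 1891 CPM, a ratio of 1.22 that was 0.954 at Leiden resolution 0.5 and 0.852 with separate clustering. cDC1-like cells went from 183 to 317 CPM (1.73, 1.48 to 2.02), and 1.43 with at least 500 genes a cell. The macrophage-like class as a whole was at 0.906, and between 0.879 and 1.09 over the alternatives. The ratio over all cells, 1.54, thus lay above that of each of the 4 clusters that held most of the counts.

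In the remaining clusters Cd14 was 7.84 to 146 CPM in control, and several passed 1.5-fold. With free RNA subtracted at 5%, class ratios past 1.5-fold higher, over all members, went from 11 to 4. That subtraction left no control Cd14 counts in fibroblast-like, regulatory T cell-like or endothelial cell-like cells. Fibroblast-like cells, with 12.5% of all genes called higher, went from 26.5 to 95.9 CPM (3.61, 2.39 to 5.59), but 1 RHS cell held 40 of the 92 UMIs, and without the richest cells the ratio was 2.35 (1.46 to 3.87). Regulatory T cell-like cells went from 21.4 to 60.5 CPM (2.83), with 43 of 102 RHS UMIs in 1 cell and 2.09 without the richest cells. In 7 of 10 alternatives that ratio was no longer past 1.5-fold, at 1.04 to 1.30, and as a mean over cells the fibroblast-like ratio was 1.42 and the endothelial cell-like one 1.352. Mural cell-like cells went the other way, from 146 to 65.6 CPM (0.450), with 26 of 56 control UMIs in 1 cell and 0.619 (0.358 to 1.07) without the richest cells. Unnamed cluster 0 (2.43), basophil-like (2.25), alpha-beta T cell-like cluster 4 (2.19) and endothelial cell-like cells (1.93) were also higher, in clusters where 7.02% to 8.84% of all genes were. The summed CPM of 8 macrophage markers was also higher in RHS in the clusters where Cd14 was: 58.0 and 155 in fibroblast-like, 14.9 and 45.7 in regulatory T cell-like, 43.2 and 105 in cluster 0, 26.1 and 77.3 in cluster 4, 30.1 and 61.5 in endothelial cell-like and 371 and 467 in basophil-like cells. In mural cell-like cells, where Cd14 was lower in RHS, the markers were higher, at 75.5 and 118. Of the 8 markers, 6 in control and 7 in RHS had counts in cluster 0, and 5 and 7 in regulatory T cell-like cells. In basophil-like cells 6 and 6 had counts, and in fibroblast-like cells 6 and 8. C1qa was among those at 0 in both libraries in cluster 0, regulatory T cell-like and basophil-like cells, and in control fibroblast-like cells. It was also thinly captured in the 350 control Langerhans cell-like cells without Cyp24a1, with 46 counts against 1167 of C1qb. The part of these markers in the Cd14 values was not tested.

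Of 14 genes of the CD14 and TLR4 receptor complex, 3 were higher over all cells and 0 lower, against 3.9% and 16.7% of all genes: Tlr2 (59.1 and 99.3 CPM, 1.68), Itgam (118 and 183 CPM, 1.56), the CD11b chain, and Ticam2 (1.51). Tlr4 itself was 8.25 and 10.9 CPM (1.32). The list's median log2 ratio was 0.16, and that of all genes -0.11. The over-all ratios in this paragraph were not weighted by the control make-up. The macrophage-like and monocyte-like clusters with cluster 3 held 27.7% of control and 43.9% of RHS UMIs. In neutrophil-like cells 6 were measured, 3 higher and 1 lower, against 13.4% and 17.2% of all genes. Tlr2 went from 215 to 509 CPM (2.37, 1.69 to 3.36), and Traf6 (2.20) and Myd88 (1.90) had intervals that include 1. Ly96, the MD-2 partner of TLR4, had 25 and 5 counts (0.235, 0.0703 to 0.625), while Tlr4 was at 0.992. Of 12 nuclear receptors listed as partners of retinoid X receptors, 0 were higher and 3 lower over all cells, where 16.7% of all genes were lower: Rarb, a retinoic acid receptor, on 88 and 30 counts (0.354), Thrb, a thyroid hormone receptor (0.626), and Nr4a1 (287 and 177 CPM, 0.617). Thrb is named outside the rule for named genes, after its values were seen.

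The genes most like each member were taken by Pearson's r of log2(CPM + 10) over the 52 points of 26 clusters in 2 libraries, among 11328 genes. The points share libraries and differ in depth, so r is a description. Vdr was most like Spint1 (0.736), Mfsd2a (0.725), Hax1 (0.725), Jup (0.721) and Plet1 (0.692). Cyp24a1 was most like Serpinb5 (0.929), Cldn4 (0.922), Trp63 (0.920), Esrp1 (0.920) and Rab25 (0.918), of which Trp63 was a keratinocyte marker used in naming. Cd14 was most like Clec4n (0.965), Mefv (0.943), Cd300c2 (0.943), Cd68 (0.935) and Wfdc17 (0.929). Rxra was most like Evi5l at 0.758, Siah1a at 0.686, Arpc1a at 0.671, Dnmbp at 0.659 and Tuba8 at 0.656. Between members r was 0.552 for Vdr with Cyp24a1, 0.675 for Cyp24a1 with Cyp27b1 and -0.18 for Vdr with Rxra. Cyp27b1 had 102 counts, under the minimum of 200 set for the genes compared, so its r rests on few counts.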

How the data were processed

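The deposited skin matrices give raw, unnormalized UMI counts per gene and barcode, as the file headers and the values show. The submitters' processing notes name GRCm39, Cell Ranger, R 3.6.0 and Seurat 5.1.0 without a role. The program that called the skin barcodes and the strand of counting are not given in the sources used here; deposited barcodes start at 500 UMIs.

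From these counts, barcodes under 200 genes (54 control, 92 RHS) and those over 20% mitochondrial UMIs (202 control, 179 RHS) were dropped. Scrublet at an expected 6% marked 146 (1.15%) and 115 (0.880%) doublets, a low share that leaves undetected ones. The libraries were clustered together, unintegrated, in scanpy 1.11.5: 10000 UMIs a cell, log1p, 2000 variable genes without the 5 members, 30 components, 15 neighbours and Leiden resolution 1.0. Python 3.11.15, scipy 1.17.1, numpy 2.4.6, pandas 2.3.3, leidenalg 0.10.2 and matplotlib 3.10.9 were used beside it.

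A cluster was named from 29 marker classes: a marker counted with a UMI in at least 5% of its cells and a level over 2 times that of the other clusters, and at least 3 such markers were needed. Suprabasal, basal and follicular keratinocyte classes were merged. CPM came from summed counts, with exact Poisson 95% intervals; shares have exact Clopper-Pearson intervals and ratios exact conditional binomial ones. UMIs limit amplification bias, and all these cover counting error only. A ratio was called past 1.5-fold with at least 20 counts over both libraries, and a library at 0 took a floor of 3 counts. The counting intervals and calls were tested only on simulated Poisson counts, the model that the intervals assume. Uneven counts between cells were not simulated, so that test does not cover them.

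All 5 members are named in each cluster with 50 cells a library where counts reached 10, and from each list the 2 highest and 2 lowest ratios; other list genes were added after their values were seen. A gene of the receptor's coregulator list, and the counts over that list, are not reported here. The members and lists were chosen with earlier results of these data known. The naming rule's details, separate description of clusters 9 and 16, keratin bins, thinning to 500 and 2000 UMIs, per-cell splits of the Langerhans cell-like cluster, the Ptprc limit of 20 CPM and the alternative without the richest cells were chosen after seeing the data. Alternatives changed the resolution, filters, doublets, clustering genes, joint clustering, scaling, free RNA and minimum counts. Promoter windows came from RefSeq tables of GRCm38.p6, whose coordinates were not mixed with the GRCm39 counts. In the ganglia library, nuclei with at most 5% mitochondrial UMIs were used. Its header names Cell Ranger 7.1.0.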

Additional observations from a re-analysis of the deposited data

Results flagged for a closer look

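The receptor, its target and Cd14 each moved in opposite directions in different clusters, and the difference between the clusters was not tested in any of these. Vdr had a ratio of RHS over control of 1.22 in keratinocyte-like cluster 9 and 0.393 in fibroblast-like cluster 15. Cyp24a1 had 2.06 in cDC2-like cluster 5, on 22 and 39 counts, of which 1 RHS cell held 11, and 0.388 in Langerhans cell-like cluster 11, on 261 and 92 counts. The ratio of 2.06 was 1.81 (0.964 to 3.47) without the richest cells and under 1 in 3 alternatives (0.908, 0.723 and 0.578). Cd14 had 3.61 in fibroblast-like cluster 15 and 0.450 in mural cell-like cluster 23. In both a lone cell held over 40% of the counts of the higher library (43.5% and 46.4%). With free RNA subtracted at 5%, no control Cd14 counts were left in fibroblast-like cells and the mural cell-like ratio was 0.

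The library of sympathetic ganglia nuclei from mice given RHS and MC903, which enters no comparison, also held counts of 3 members. Over 4509 nuclei with a median of 1543 UMIs, Rxra had 263 counts, 25.2 CPM (22.2 to 28.4), in 5.28% of nuclei. Vdr had 67 counts, 6.42 CPM (4.98 to 8.15), and Cd14 had 68 counts, 6.52 CPM (5.06 to 8.26). Cyp24a1 had 2 counts and Cyp27b1 had 1, both under a floor of 3. Nuclei and cells were captured with different chemistries, so these levels are not set against the skin.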

How the results depend on the processing

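Each group is 1 library, so no replicate could be left out. No paired analysis was possible because the groups share only 1 replicate number. Of the class ratios under an alternative, 496 moved by less than their counting interval, 70 moved by more and 5 reversed, which means that a ratio past 1.5-fold changed its side of 1. These were Vdr in alpha-beta T cell-like cells (0.638, and 1.16 at Leiden resolution 0.5), Cyp24a1 in cDC2-like cells (2.06, and 0.908 at resolution 0.5, 0.723 with doublets kept, 0.578 with the members among the clustering genes) and Cyp24a1 in migratory dendritic cell-like cells (1.51, and 0.907 without the richest cell of each library, an alternative chosen after seeing the data). Of the class ratios within 1.5-fold, 14 crossed 1 under at least 1 alternative, in 43 values, among them Cd14 in cDC2-like cells (1.22, and 0.852 to 0.954), Cd14 (0.906, and 1.02 to 1.09) and Vdr (0.678, and 1.02 to 1.10) in macrophage-like cells, and Vdr in cDC2-like cells (0.900, and 1.01 to 1.57). Class ratios past 1.5-fold higher went from 11 to 4 with free RNA subtracted at 5%, since the subtraction left no Cd14 counts in several clusters of other lineages, and lower ones were 18 in both.

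Over all cells, the ratio relative to the median gene (log2 shift -0.11) was 0.714 for Vdr, 0.345 for Cyp24a1 and 1.66 for Cd14. A mitochondrial limit of 10% gave 0.295 for Cyp24a1 and 1.49955 for Cd14, and a mean over cells 0.300 and 1.495. At the control make-up, resolution 0.5 gave 0.998 for Vdr, 0.713 for Cyp24a1 and 1.13 for Cd14. Separate clustering gave 1.09 for Vdr, 0.716 for Cyp24a1 and 0.600 for Rxra. A 10% limit gave 0.676 for Cyp24a1 and 1.15 for Cd14, which was 1.13 at resolution 2.0, 1.12 with doublets kept and 1.13 with 500 genes a cell. The other 68 over-all values, counts and make-up ratios stayed within the limits set for them. These were the counting interval for over-all values and a factor of 1.5 for counts. For make-up ratios it was the over-all interval rescaled, which is not an interval of their own. Cyp24a1 in keratinocyte-like cells stayed between 0.647 and 0.828, in sebocyte-like cells between 0.625 and 0.709 and in Langerhans cell-like cells between 0.366 and 0.539. Cd14 in fibroblast-like cells ranged from 1.42 to 8.21 and in regulatory T cell-like cells from 1.04 to 2.90. The cause of these shifts was not tested. Depth limits Cyp27b1 (86 and 16 counts), and cluster 16 has 57 RHS cells.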
